A study of Mus musculus with 13 samples.

Results

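The 10 genes described here belong to the intestinal mucus layer and were followed through the epithelium of colon tumors and adjacent mucosa: Muc2, Fcgbp, Zg16, Clca1, Tff3, Agr2, Spdef, Muc13, Muc4 and Muc1. They were chosen by symbol, and all 10 were found among the 32285 genes of the deposited count matrices. The data were 13 single-cell RNA libraries from 3 mice, 10 of colon tumors and 3 of adjacent mucosa, made with a droplet method that counts the 3′ ends of transcripts. Every mouse was C57BL/6J, carried ApcMin/+, a heterozygous truncating mutation of the Wnt regulator Apc, and was homozygous for p16cis, an allele that carries an epimutation of the p16 gene. Every mouse ate the supplemented diet, which holds folic acid, vitamin B12, betaine and choline beyond the usual amounts, so neither genotype nor diet varied between the libraries compared here. Mouse A, 24 weeks old, gave mucosa 2 and tumors 5 to 8. Mouse B, 23 weeks old, gave mucosa 3 and tumors 9 and 10. Mouse C, 20 weeks old, gave mucosa 1 and tumors 1 to 4.

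The colon is covered by mucus that goblet cells, the secretory cells of the crypt, store in granules and release. MUC2 is the gel-forming mucin of that layer, and FCGBP, ZG16, CLCA1 and TFF3 are secreted with it: FCGBP and CLCA1 are abundant mucus proteins, CLCA1 is a protease that acts on the MUC2 network, ZG16 is a lectin that binds bacteria, and TFF3 is a trefoil peptide linked to epithelial repair. AGR2 is a disulfide isomerase of the endoplasmic reticulum that mucin folding needs, and SPDEF is an ETS-family transcription factor of goblet cell maturation. MUC13, MUC4 and MUC1 are transmembrane mucins that stay on the apical cell surface and form the glycocalyx, and MUC13 is also typical of absorptive cells.

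After filtering, 108495 cells remained, 32752 of them epithelial, with 22451532 to 40454875 epithelial transcript counts (UMIs, unique molecular identifiers) in a tumor library and 59870970 to 80069671 in a mucosa library. Mucosa was dissociated with EDTA and a trypsin-like enzyme and tumors with a tumor dissociation kit, so tissue and dissociation cannot be told apart. Barcodes over the mitochondrial limit made up 14.3%, 28.9% and 21.4% of those of mucosa 1, 2 and 3 and 4.29% to 11.5% in tumors. The part of this in the differences between tissues was not tested. The labels call 7 libraries female and give both sexes under one animal code, but every library held at most 0.123 CPM of Xist and at least 29.6 CPM of Ddx3y (counts scaled to a fixed library total), so the labels' sex was not used. Of the distinct barcodes, 1427 (1.33%) were found in more than 1 library. Mucosa 1 stood apart from the other mucosa libraries, since 52.1% of its epithelial cells were goblet-like against 24.5% and 20.7%, and the called fold changes of the 10 genes are also given without it. The shares of UMIs by class and the cluster means of mucosa include it.

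The genes lie on several chromosomes of GRCm38, the mm10 build of the labels. All are annotated as protein-coding. Muc2 (ENSMUSG00000025515) spans chr7:141690340-141754693, Fcgbp (ENSMUSG00000047730) chr7:28071236-28120862 and Zg16 (ENSMUSG00000049350) chr7:127050156-127087328. Muc1 (ENSMUSG00000042784) spans chr3:89229057-89233381 and Clca1 (ENSMUSG00000028255) chr3:145003817-145032776. Muc4 (ENSMUSG00000079620) spans chr16:32735886-32782391 and Muc13 (ENSMUSG00000022824) chr16:33794037-33819934. Agr2 (ENSMUSG00000020581) spans chr12:35992907-36004087, Tff3 (ENSMUSG00000024029) chr17:31125306-31129646 and Spdef (ENSMUSG00000024215) chr17:27714352-27728955. Fcgbp and Clca1 have close paralogs, and reads shared with a paralog could make their levels less certain, which was not examined.

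Promoter windows from RefSeq (GRCm38.p6) were available for 7 of the 10 genes, Zg16, Clca1 and Tff3 being without one. The 250 bases before the RefSeq start are shown for Muc2, Agr2 and Spdef, a gel mucin, its folding factor and the regulator, which were lower in the sums over all epithelial cells of tumors, and for the transmembrane mucins Muc13, which did not pass that test, and Muc4, which was lower in it. Muc13 has 2 windows in the table, and the one at its annotated start is printed. The RefSeq starts of Agr2 and Spdef lie inside the gene spans given above, so the ends of these windows overlap those spans. Capitals mark matches on either strand to TATAAA (the letters of the TATA box), AGATAA (for GATA factors), TGTTTNC (FOXA factors), TTTATNG (CDX factors), CAAAGNNCA (HNF4 factors), CAGGAT (the core bound by SPDEF and other ETS factors) and CAGNTG (E-box), and neighboring matches can overlap.
Muc2, chr7:141690090-141690339, plus strand: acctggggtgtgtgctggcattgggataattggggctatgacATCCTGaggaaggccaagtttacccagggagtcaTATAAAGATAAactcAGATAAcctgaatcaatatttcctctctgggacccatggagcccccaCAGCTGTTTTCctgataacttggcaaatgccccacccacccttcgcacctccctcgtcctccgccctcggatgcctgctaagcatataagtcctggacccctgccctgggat
Agr2, chr12:35992675-35992924, plus strand: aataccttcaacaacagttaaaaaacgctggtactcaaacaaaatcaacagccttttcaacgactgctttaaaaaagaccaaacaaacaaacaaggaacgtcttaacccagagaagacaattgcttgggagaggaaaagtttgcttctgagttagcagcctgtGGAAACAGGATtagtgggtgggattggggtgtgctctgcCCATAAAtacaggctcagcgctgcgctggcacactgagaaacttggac
Spdef, chr17:27728952-27729201, minus strand: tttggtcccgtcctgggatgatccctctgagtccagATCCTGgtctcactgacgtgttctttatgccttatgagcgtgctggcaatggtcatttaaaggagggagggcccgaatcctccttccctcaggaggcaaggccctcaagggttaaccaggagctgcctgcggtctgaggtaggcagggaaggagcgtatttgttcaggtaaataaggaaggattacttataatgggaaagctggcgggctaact
Muc13, chr16:33793787-33794036, plus strand: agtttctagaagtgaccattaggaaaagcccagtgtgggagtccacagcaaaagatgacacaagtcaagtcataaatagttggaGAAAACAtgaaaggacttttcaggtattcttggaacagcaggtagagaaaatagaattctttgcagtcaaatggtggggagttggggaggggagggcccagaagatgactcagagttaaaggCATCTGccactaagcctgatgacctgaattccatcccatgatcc
Muc4, chr16:32735636-32735885, plus strand: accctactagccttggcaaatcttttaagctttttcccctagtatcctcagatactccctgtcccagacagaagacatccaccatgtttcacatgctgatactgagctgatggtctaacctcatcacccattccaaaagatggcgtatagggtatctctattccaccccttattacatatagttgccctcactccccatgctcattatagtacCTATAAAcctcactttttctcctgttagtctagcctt

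The CAGGAT letters occurred in the printed windows of Muc2, Agr2 and Spdef, in the second Muc13 window (chr16:33794239-33794488) and in 13.6% of the 32851 promoter windows of all genes. The FOXA letters occurred in Muc2, Agr2 and Muc13 and in 17.8% of all windows, and the CDX letters in Agr2 and Muc4 and in 9.81%. The TATAAA letters occurred in Muc2, Muc4 and Muc1, whose window is not printed, and in 12.4% of all windows, the AGATAA letters in Muc2 and in 9.99%, and the E-box letters in Muc2, both windows of Muc13 and the windows of Muc1 and Fcgbp, not printed, and in 44.8%. The HNF4 letters occurred in the second Muc13 window, in none of those printed and in 5.49% of all windows. These matches describe the letters in the windows.

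The first comparison asked how the 10 genes differed between tumor and mucosa when UMIs were summed over all epithelial cells of a library. The secreted gel components other than Tff3, the folding factor Agr2 and the regulator Spdef were lower in tumors, whereas Tff3, Muc13 and Muc1 did not pass the test. Of the 10 genes, 7 were lower and 0 higher at an adjusted p under 0.05 (edgeR quasi-likelihood test, Benjamini-Hochberg over 15549 genes), against a background of 30.1% of all genes lower and 33.7% higher, 63.8% in either direction. The 7 calls held in all 23 alternatives tried. Without mucosa 1 the log2 fold changes were -3.37 for Zg16, -3.19 for Agr2, -3.09 for Clca1, -2.97 for Spdef, -2.87 for Muc2, -2.60 for Fcgbp and -1.495 for Muc4, and -0.58 for Tff3, which again missed the threshold. In 6 of the 10 every tumor lay below every mucosa library, and 45.5% of all genes had no overlap in one direction or the other. The median log2 fold change of the 10 genes was -2.75, against 0.04 over all genes. Levels are in CPM, the UMIs of a gene scaled to a fixed total per summed library, and log2 fold changes are tumor minus mucosa with their SE. In such sums, fewer goblet cells and less RNA per goblet cell cannot be told apart.

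**Figure D1:**
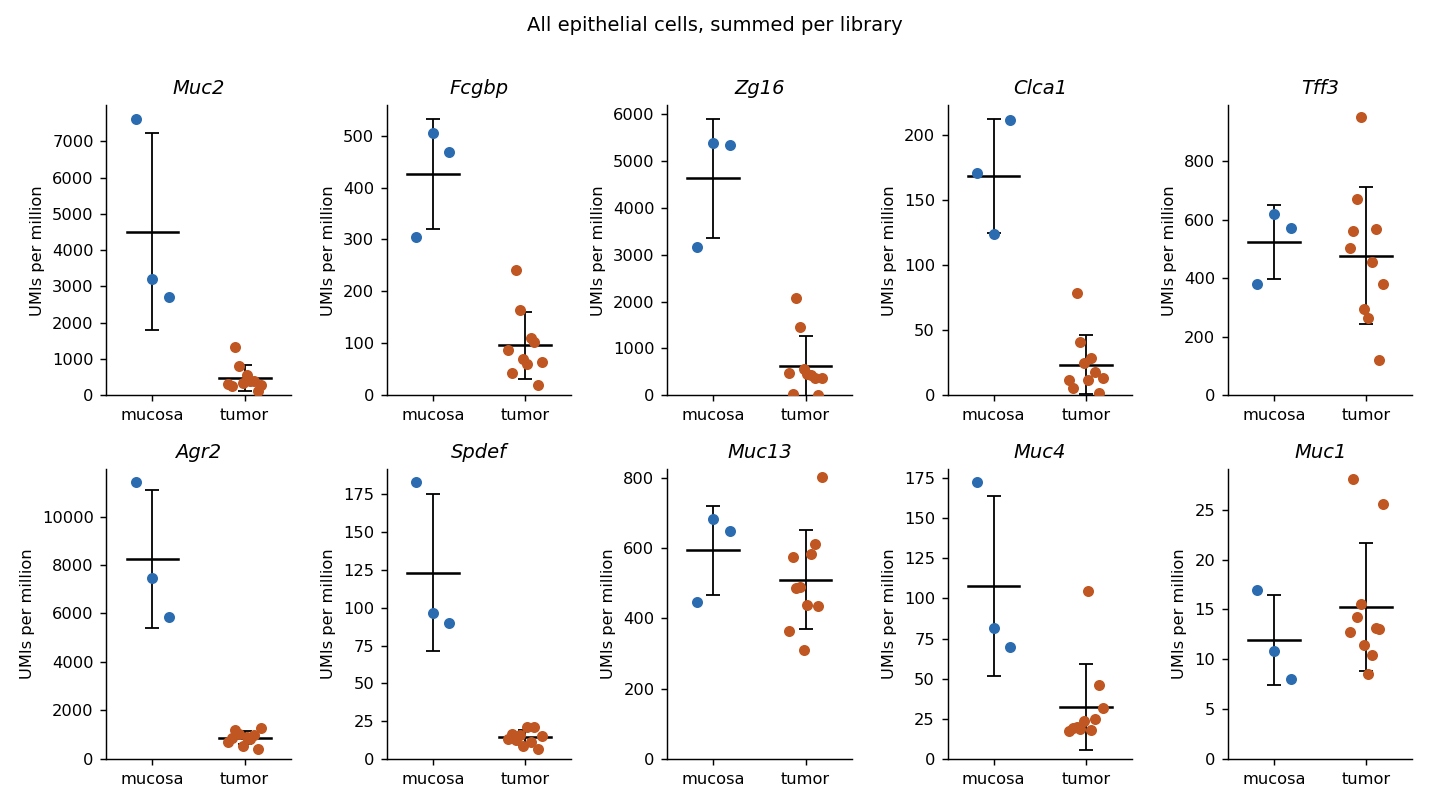
CPM in the epithelial sums (vertical axis, linear, from 0) of the 10 genes in 3 mucosa and 10 tumor libraries, 1 point a library, with the mean (bar) and SD (whiskers). The libraries of Muc2, Fcgbp, Zg16, Clca1, Agr2 and Spdef separate completely, while those of Tff3, Muc13, Muc4 and Muc1 overlap.

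Muc2 stood at 7618, 3214 and 2695 in mucosa 1, 2 and 3 and at a lowest of 131.0, a median of 358.5 and a highest of 1344 in tumors. No tumor reached any mucosa library. The log2 fold change was -3.48 ± 0.49, an 11.2-fold lower level (adjusted p = 4.1e-05). Zg16, the lectin, fell from 3165, 5384 and 5330 to a median of 446.8, and its tumors were widely spread, from 3.88 in tumor 9 to 2077 in tumor 3 (log2 fold change -3.16 ± 0.94, adjusted p = 0.0096). Clca1, the protease, fell from 170.8, 124.1 and 211.5 to a tumor range of 1.603 to 79.1 with a median of 15.6 (log2 fold change -3.100 ± 0.65, adjusted p = 0.0010). Fcgbp showed the smallest fall of the 4 that fell, from 304.8, 505.3 and 468.2 to a range of 19.2 to 240.8 with a median of 79.0 (log2 fold change -2.41 ± 0.47, adjusted p = 0.00056). In all 4 genes tumor 9 was the lowest tumor and tumor 3 the highest.

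For Tff3, the trefoil peptide, no difference passed the test. Mucosa held 379.7, 617.3 and 570.3 and tumors 120.7 to 949.0 with a median of 478.5, so the groups overlapped throughout. The log2 fold change was -0.39 ± 0.42 (adjusted p = 0.42). Within mice the sign differed: the tumors of mouse C averaged 1.76 times their own mucosa, and those of mice A and B 0.639 and 0.438 times.

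Agr2 and Spdef fell with a narrower spread than the secreted products. Agr2 stood at 11418, 7467 and 5866 in mucosa and between 393.1 and 1265 in tumors, with a median of 885.1, a log2 fold change of -3.50 ± 0.28 (adjusted p = 4.8e-07). Spdef stood at 183.0, 96.7 and 89.9 in mucosa and between 6.64 and 21.0 in tumors, with a median of 14.3, a log2 fold change of -3.37 ± 0.27 (adjusted p = 5.3e-07). For both genes every tumor lay below every mucosa library, and each mouse's tumors averaged between 0.0796 and 0.161 times its own mucosa.

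Among the transmembrane mucins, Muc4 fell and the others did not pass the test. Muc4 stood at 172.4, 81.5 and 69.7 in mucosa and between 17.3 and 104.8 in tumors with a median of 22.0 (log2 fold change -2.002 ± 0.47, adjusted p = 0.0020). Tumor 6 alone overlapped mucosa, and the next tumor stood at 45.7. Muc13 held 447.7, 683.2 and 649.9 in mucosa and 310.4 to 801.4 in tumors with a median of 488.3 (log2 fold change -0.47 ± 0.24, adjusted p = 0.0998). Without tumor 10, its highest tumor, the adjusted p was 0.019, with a log2 fold change of -0.58. Muc1 was low in both tissues, at 16.95, 10.8 and 8.06 in mucosa and 8.54 to 28.1 in tumors with a median of 13.1 (log2 fold change 0.12 ± 0.36, adjusted p = 0.79).

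Clusters of cells made without the 10 genes were named from other markers and show where each gene's UMIs lay. Goblet-like cells numbered 4849, of which 627 came from tumors. In mucosa they made up 52.1% (95% Clopper-Pearson interval 50.1 to 54.0), 24.5% (23.5 to 25.5) and 20.7% (19.6 to 21.8) of epithelial cells. In tumors the share ran from 0.477% (0.206 to 0.938) in tumor 9 to 7.65% (6.48 to 8.96) in tumor 3, with a median of 3.19%. These intervals cover counting error only, and the shares follow from clustering and were not tested. Paneth-like cells, which hold lysozyme and defensin transcripts and which healthy mouse colon lacks, made up 1.44% to 10.5% of tumor epithelial cells with a median of 2.97%, and 4 such cells were found in mucosa. Tumor epithelial-like cells, named from Wnt targets such as Axin2, Nkd1 and Lgr5, made up 52.4% to 87.7% of tumor epithelial cells. The extent of this class depends on the clustering. In a finer clustering its clusters held 6325 and 4119 tumor cells, while a cycling-like cluster held 850 and an epithelial cluster without a class name 1832. The class levels given below are those of the main clustering.

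**Figure D2:**
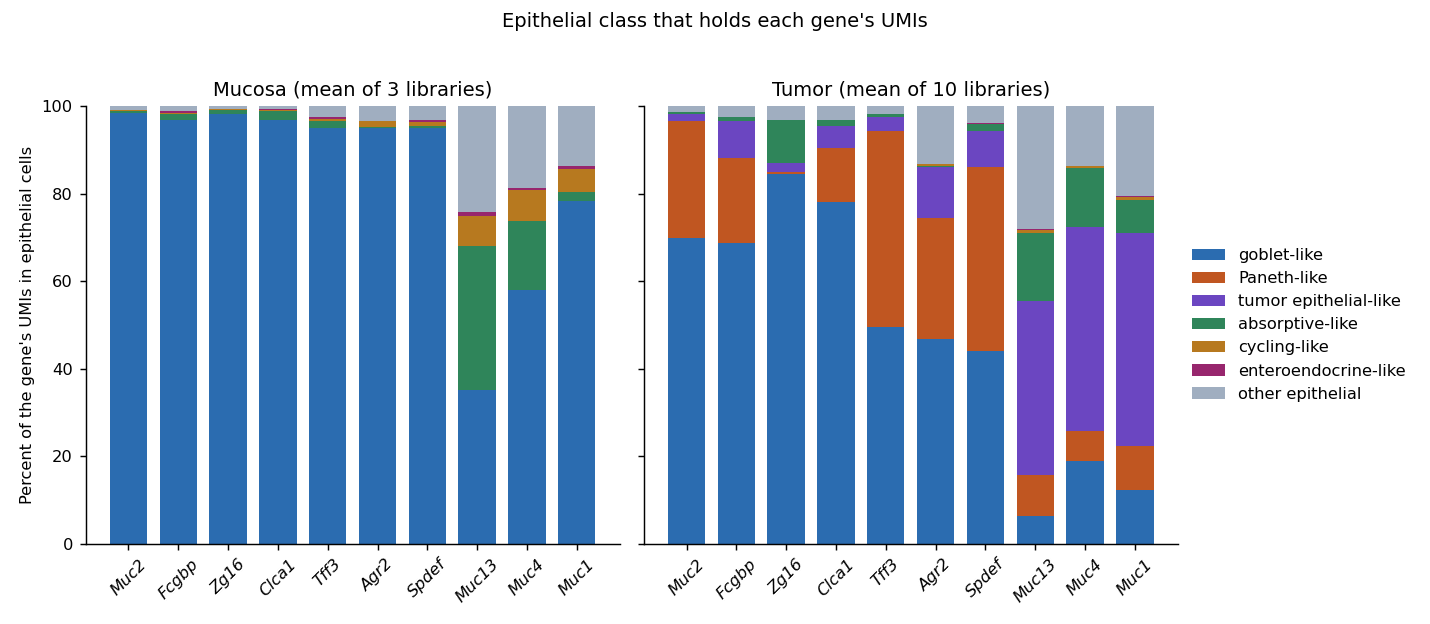
Percent of each gene's epithelial UMIs (vertical axis) that lay in each of 7 cell classes, as the mean over 3 mucosa libraries (left) and 10 tumor libraries (right). In mucosa 7 genes lay almost wholly in goblet-like cells, and in tumors Paneth-like cells held 44.7% of Tff3 and tumor epithelial-like cells 39.8% of Muc13.

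In mucosa, goblet-like cells held 98.3% ± 1.34 (SD, n = 3) of Muc2 UMIs, 94.9% ± 2.10 of Agr2, 94.9% ± 0.427 of Tff3 and 94.9% ± 2.08 of Spdef. The transmembrane mucins were spread wider, with 78.2% ± 4.31 of Muc1, 57.9% ± 19.1 of Muc4 and 35.1% ± 13.7 of Muc13 in goblet-like cells and a further 32.8% ± 10.7 of Muc13 in absorptive-like cells. In tumors the goblet-like part was 69.8% ± 18.3 (SD, n = 10) for Muc2, 49.6% ± 22.3 for Tff3, 46.8% ± 17.04 for Agr2 and 44.1% ± 20.4 for Spdef. Paneth-like cells held 26.8% ± 18.3 of Muc2, 44.7% ± 22.5 of Tff3, 27.6% ± 17.3 of Agr2 and 42.0% ± 20.9 of Spdef. For Zg16 the mean level in Paneth-like cells was 20.9 CPM, with 1.39 in the median tumor. Tumor epithelial-like cells held 48.6% ± 9.65 of Muc1, 46.6% ± 12.7 of Muc4 and 39.8% ± 12.5 of Muc13.

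Goblet-like cells lay in 2 clusters, whose levels are described without a test. Cluster 12 held 555 tumor and 2411 mucosa cells, and cluster 17 held 72 tumor and 1811 mucosa cells. In mucosa, Clca1 was at 1151 ± 713.1 CPM (SD, n = 3) in cluster 12 and 4.47 ± 3.20 in cluster 17, and Fcgbp at 3057 ± 1953 and 106.2 ± 38.2. Zg16 was at 35028 ± 22825 and 273.1 ± 171.3, with 8671 in the lowest library of cluster 12 and 423.1 in the highest of cluster 17, and Tff3 at 3376 ± 2304 and 494.5 ± 109.8. For these 4 genes every mucosa library was higher in cluster 12 than any in cluster 17, whereas those of Muc2 and Spdef overlapped. Muc2 was at 12439.8 ± 4494 (SD, n = 3) in cluster 12 and 11539.6 ± 3955 in cluster 17, and Spdef was 251.0 ± 86.3 in cluster 12 and 436.5 ± 131.3 in cluster 17. Cluster 12 made up 69.0% to 97.9% of goblet-like cells in tumors and 44.9% to 76.2% in mucosa, so the mix of clusters moved with tissue.

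The second comparison asked whether the 10 genes differed within goblet-like cells, over the 9 tumors with at least 20 such cells, tumor 9 being left out with 8. Tumor goblet-like cells held more Tff3 and less Agr2 than those of mucosa, while Muc2 itself, Zg16, Clca1, Fcgbp and Muc4 did not pass the test. Of the 10 genes, 3 were higher and 2 lower (edgeR quasi-likelihood test, adjusted over 8806 genes), against 7.94% of all genes higher and 5.06% lower. The libraries did not overlap in 2 of the 10, Tff3 and Agr2, against 9.69% of all genes. The median log2 fold change of the 10 genes was 0.18, against 0.02 over all genes.

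**Figure D3:**
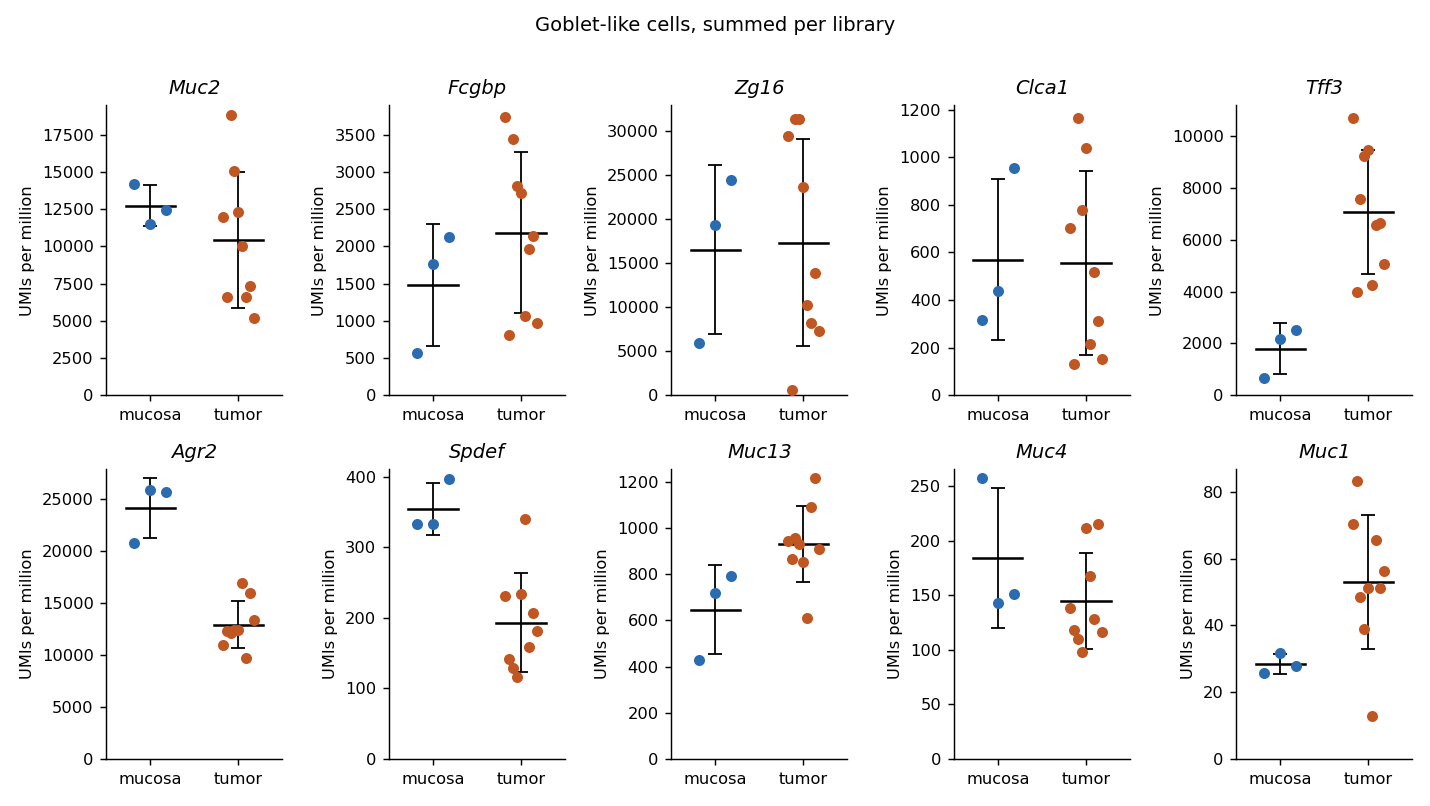
CPM in the goblet-like sums (vertical axis, linear, from 0) of the 10 genes in 3 mucosa and 9 tumor libraries, 1 point a library, with the mean (bar) and SD (whiskers). Tff3 lies higher and Agr2 lower in every tumor than in every mucosa library, and the other genes overlap.

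Tff3 stood at 677.2, 2159.8 and 2534 CPM in mucosa goblet-like cells and between 4004 and 10696 in those of tumors, with a median of 6652. All 9 tumors lay above all mucosa libraries, and each mouse's tumors averaged 2.001 to 11.6 times its own mucosa. The log2 fold change was 2.12 ± 0.41, a 4.36-fold higher level (adjusted p = 0.0031). Without mucosa 1 it was 1.74 ± 0.39 (adjusted p = 0.013), and with cluster 12 alone it was 1.496 ± 0.47 with an adjusted p of 0.071. Marker sums were taken over all 10 tumors, tumor 9 with its 8 goblet-like cells included. The summed Paneth markers ran from 26.4 to 1569.9 CPM in tumor goblet-like sums and from 15.6 to 48.7 in mucosa. Of these markers 3 of the 8 were at 0 in mucosa and 0 of the 8 at 0 in tumors, and their part in the Tff3 value was not tested. The 6 neutrophil markers likewise summed to 49.98 to 1324 in tumor and 0.250 to 2.06 in mucosa goblet-like sums, with 2 of 6 at 0 in mucosa, and their part was not tested.

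Agr2 stood at 20789.7, 25925 and 25755 in mucosa goblet-like cells and between 9717 and 16897 in those of tumors, with a median of 12457. No tumor reached the mucosa range. The log2 fold change was -0.79 ± 0.16, a 1.73-fold lower level (adjusted p = 0.0042), and it was -0.87 ± 0.18 without mucosa 1 (adjusted p = 0.0071) and -0.71 ± 0.19 in cluster 12 alone (adjusted p = 0.036). With a mitochondrial limit of 10%, which left 7 tumors, it was -0.56 ± 0.19 with an adjusted p of 0.11.

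Spdef, Muc1 and Muc13 passed the test with smaller margins. Spdef stood at 333.2, 333.5 and 397.3 in mucosa and 116.6 to 340.6 in tumors with a median of 181.2 (log2 fold change -0.78 ± 0.23, adjusted p = 0.035), and tumor 6 alone overlapped mucosa. Muc1 stood at 25.9, 31.8 and 27.8 in mucosa and 12.9 to 83.4 in tumors with a median of 51.3 (log2 fold change 0.99 ± 0.28, adjusted p = 0.031), and tumor 6 alone lay below mucosa. Muc13 stood at 426.5, 720.0 and 791.9 in mucosa and 612.1 to 1217 in tumors with a median of 933.1 (log2 fold change 0.65 ± 0.20, adjusted p = 0.043). These calls were not firm: the adjusted p lay above 0.05 in 16 of 24 alternatives for Muc13, 10 of 24 for Spdef and 7 of 24 for Muc1. Without mucosa 1 the log2 fold changes were 0.44 for Muc13, -0.80 for Spdef and 0.95 for Muc1, with adjusted p of 0.22, 0.087 and 0.11. With cluster 12 alone the log2 fold changes were 0.36 for Muc13, -0.36 for Spdef and 0.70 for Muc1, with adjusted p of 0.35, 0.52 and 0.095.

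The secreted products other than Tff3 had wide spreads within goblet-like cells. Muc2 stood at 14207, 11496 and 12452 in mucosa and 5159 to 18795 in tumors with a median of 10044 (log2 fold change -0.15 ± 0.34, adjusted p = 0.81). Zg16 stood at 5891, 19319 and 24419 in mucosa and 561.6 to 31417 in tumors with a median of 13927 (log2 fold change 0.23 ± 0.72, adjusted p = 0.87). Fcgbp stood at 564.0, 1766 and 2123 in mucosa and 813.3 to 3735 in tumors (log2 fold change 0.71 ± 0.47, adjusted p = 0.35). Mucosa 1 was the lowest mucosa library for Zg16, Fcgbp, Clca1 and Tff3. Clca1 stood at 315.0, 439.3 and 953.0 in mucosa and 131.1 to 1167 in tumors (log2 fold change 0.13 ± 0.58, adjusted p = 0.92), and Muc4 at 257.7, 143.0 and 151.3 in mucosa and 97.9 to 215.0 in tumors (log2 fold change -0.26 ± 0.24, adjusted p = 0.50).

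The third comparison left goblet-like cells out and summed all other epithelial cells. Tff3 and Muc1 were higher and Zg16 and Muc4 lower in tumors. That is 2 of 10 genes higher and 2 lower (edgeR quasi-likelihood test, adjusted over 15442 genes), against 34.0% of all genes higher and 29.7% lower, 63.7% in all, and the libraries did not overlap in 2 of the 10, Tff3 and Muc1, against 45.3% of all genes. The median log2 fold change of the 10 genes was -0.40, against 0.06 over all genes. In these sums the 14 goblet markers together ran from 557.1 to 4893 CPM in tumors and from 253.3 to 341.9 in mucosa. The 6 neutrophil markers ran from 91.8 to 563.9 and from 13.9 to 26.8, and the part of either set in the values was not tested.

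**Figure D4:**
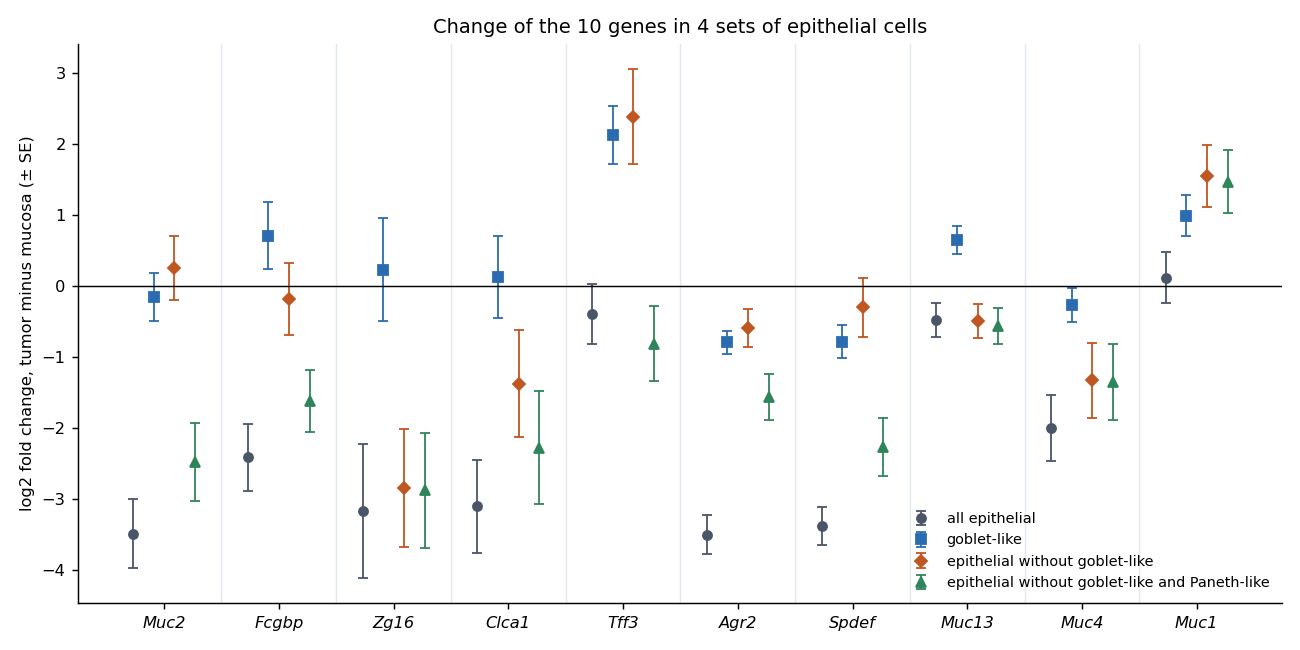
Log2 fold change, tumor minus mucosa, with its SE (vertical axis) of each gene in 4 sums of cells: all epithelial cells, goblet-like cells, epithelial cells without goblet-like cells, and the last without Paneth-like cells too. Tff3 moves from 2.38 to -0.81 and Muc2 from 0.25 to -2.48 once Paneth-like cells are left out, whereas Muc1 stays at 1.47.

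Tff3 stood at 38.1, 43.2 and 40.0 CPM in mucosa and between 74.6 and 558.3 in tumors with a median of 163.0. The log2 fold change was 2.38 ± 0.66 (adjusted p = 0.0064), and all 10 tumors lay above their own mucosa. Without Paneth-like cells, an alternative chosen after seeing the data, it was -0.81 ± 0.53 and did not pass the test (adjusted p = 0.19). With doublets kept it was 1.34 ± 0.68 (adjusted p = 0.095), and without mucosa 1 it was 2.31 ± 0.82 (adjusted p = 0.028). Paneth-like cells held a mean of 4652 Tff3 CPM, from 2956 to 7534 over the 10 tumors. They also held 5117 ± 788.4 (SD, n = 10) of Agr2, 2543 ± 1442 of Muc2 and 135.9 ± 20.8 of Spdef.

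Leaving out Paneth-like cells also moved Muc2, Spdef, Agr2, Fcgbp and Clca1. These cells numbered 790 in tumors and 4 in mucosa, and held more of these genes than the other non-goblet epithelium of tumors. The downward direction of these moves, and of that of Tff3, thus followed from the choice of cells. Muc2 went from 0.25 ± 0.45 (adjusted p = 0.64) to -2.48 ± 0.55 (adjusted p = 0.0015) without Paneth-like cells, and Spdef from -0.30 ± 0.41 (adjusted p = 0.54) to -2.26 ± 0.41 (adjusted p = 0.00031). Agr2 went from -0.59 ± 0.27 (adjusted p = 0.063) to -1.56 ± 0.32 (adjusted p = 0.00088), and Fcgbp from -0.18 ± 0.51 (adjusted p = 0.76) to -1.61 ± 0.44 (adjusted p = 0.0054). Agr2 passed as lower in 7 of 24 alternatives, among them the fit with the mouse as a block, with Paneth-like cells kept (-0.62 ± 0.26, adjusted p = 0.049). Clca1 went from -1.37 ± 0.75 to -2.28 ± 0.79 (adjusted p = 0.022). T cell-like cells of mucosa, a class that should lack these transcripts, held a mean of 228.8 Agr2, 114.0 Muc2 and 186.3 Zg16 CPM, against 9.78, 14.9 and 24.6 in T cell-like cells of tumors. Muc2 stood at 50.7, 131.6 and 61.1 in the non-goblet sums of mucosa 1, 2 and 3. That was below the 62.5, 171.3 and 108.2 of T cell-like cells of the same libraries. Agr2, Fcgbp and Clca1 lay above the T cell-like level in every mucosa library, and Spdef in all but mucosa 2. With doublets kept, Muc2 (-1.76), Agr2 (-1.42), Spdef (-1.21), Fcgbp (-1.70) and Clca1 (-2.89) also passed the test as lower. The part of free RNA and of remaining doublets in the mucosa values was not tested.

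Muc1, Zg16 and Muc4 kept their direction and call without Paneth-like cells. Muc1 stood at 6.71, 3.02 and 2.73 in mucosa and between 7.43 and 26.9 in tumors with a median of 12.0 (log2 fold change 1.55 ± 0.44, adjusted p = 0.0067), and it was 1.47 ± 0.45 without Paneth-like cells (adjusted p = 0.011). Every tumor lay above every mucosa library. Zg16 stood at 35.8, 197.4 and 176.3 in mucosa and between 3.101 and 102.1 in tumors with a median of 9.72 (log2 fold change -2.84 ± 0.83, adjusted p = 0.0084). Without mucosa 1 the log2 fold change was 2.01 for Muc1 (adjusted p = 0.0047) and -3.31 for Zg16 (adjusted p = 0.0063). The mucosa level of Zg16 was of the size seen in T cell-like cells of mucosa. Muc4 stood at 74.4, 58.7 and 47.7 in mucosa and between 12.1 and 102.5 in tumors with a median of 18.2 (log2 fold change -1.33 ± 0.52, adjusted p = 0.039). Muc4 was called in 13 of 24 alternatives and missed the threshold in 11, among them the sums without mucosa 1 (log2 fold change -1.19, adjusted p = 0.12), mucosa 2 or mucosa 3. The 10 absorptive markers moved with it, summing to 1454 to 14165 CPM in mucosa and 235.9 to 937.0 in tumors of these sums, and absorptive-like cells made up a mean of 15.9% and 4.82% of epithelial cells. Their part in the Muc4 value was not tested, and the mean Muc4 level in absorptive-like cells was 134.4 CPM in mucosa and 137.1 in tumors. Muc13 stood at 472.0, 669.5 and 611.6 in mucosa and 297.4 to 795.8 in tumors (log2 fold change -0.49 ± 0.24, adjusted p = 0.092), and without tumor 10 its log2 fold change was -0.60 with an adjusted p of 0.015.

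The difference between the change in goblet-like cells and the change in the other epithelium was tested itself. Of the 10 genes, 3 differed, all with the larger value in goblet-like cells, and 0 differed the other way (edgeR quasi-likelihood test with library as a block, adjusted over 15486 genes), against 11.4% and 14.4% of all genes, 25.8% in all. The difference on the log2 scale was 0.99 ± 0.24 for Muc13 (adjusted p = 0.0058), 1.35 ± 0.41 for Muc4 (adjusted p = 0.020) and 2.80 ± 0.99 for Zg16 (adjusted p = 0.044). For Tff3 the difference was -0.15 ± 0.56 (adjusted p = 0.90). The mix of the other epithelium moved with tissue. Absorptive-like cells made up a mean of 15.9% of epithelial cells in mucosa and 4.82% in tumors, and tumor epithelial-like cells 0.201% and 74.8%. The part of this mix in the differences was not tested. The mucosa level of Zg16 in the other epithelium was of the size seen in T cell-like cells of mucosa. The Zg16 difference missed the threshold in 9 of 21 alternatives, among them the fit without mucosa 1 (3.02, adjusted p = 0.074). The Muc4 difference missed it in 3 and that of Muc13 in 1. The differences of Fcgbp and Clca1 newly passed in 1 alternative each, and that of Muc1 in 3. Without mucosa 1 the difference was 0.91 for Muc13 (adjusted p = 0.033) and 1.502 for Muc4 (adjusted p = 0.031), and that of Muc1 went from -0.78 (adjusted p = 0.12) to -1.21 (adjusted p = 0.027).

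The last question was which of the genes the tumor epithelial-like cells, 13150 cells of the 10 tumors, still held. Muc13 was retained in every tumor, from 183.3 to 387.6 CPM with a median of 265.2, against 3.15 to 12.8 in T cell-like and 2.45 to 16.6 in neutrophil-like cells of the same tumors. Agr2 stood at 74.5 to 164.7 with a median of 96.8, against 4.29 to 16.1 and 7.64 to 35.5. Both genes lay above the T cell-like and the neutrophil-like level in 10 of 10 tumors. Epithelial cells of clusters given no class name held 401.5 to 1061 Agr2 CPM in the same tumors and 558.7 to 793.1 in mucosa. Their Muc13 was 754.9 to 1194 in the same tumors and 306.0 to 439.0 in mucosa. Different clusters made up these cells in the tissues. Cluster 13 held 1931 tumor and 645 mucosa cells, cluster 9 held 43 and 3663, and cluster 19 held 4 and 1593. The levels are therefore not those of like cells in tumor and mucosa and are given without a test. Agr2 in tumor epithelial-like cells lay below each of these levels, while Muc13 lay below those of tumors and overlapped those of mucosa. After each cell was thinned to 1500 UMIs, a Muc13 UMI was found in 24.4% to 44.2% of tumor epithelial-like cells with a median of 31.6%, against a median of 1.01% of T cell-like cells. Unthinned, the medians were 76.7% and 2.06%.

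**Figure D5:**
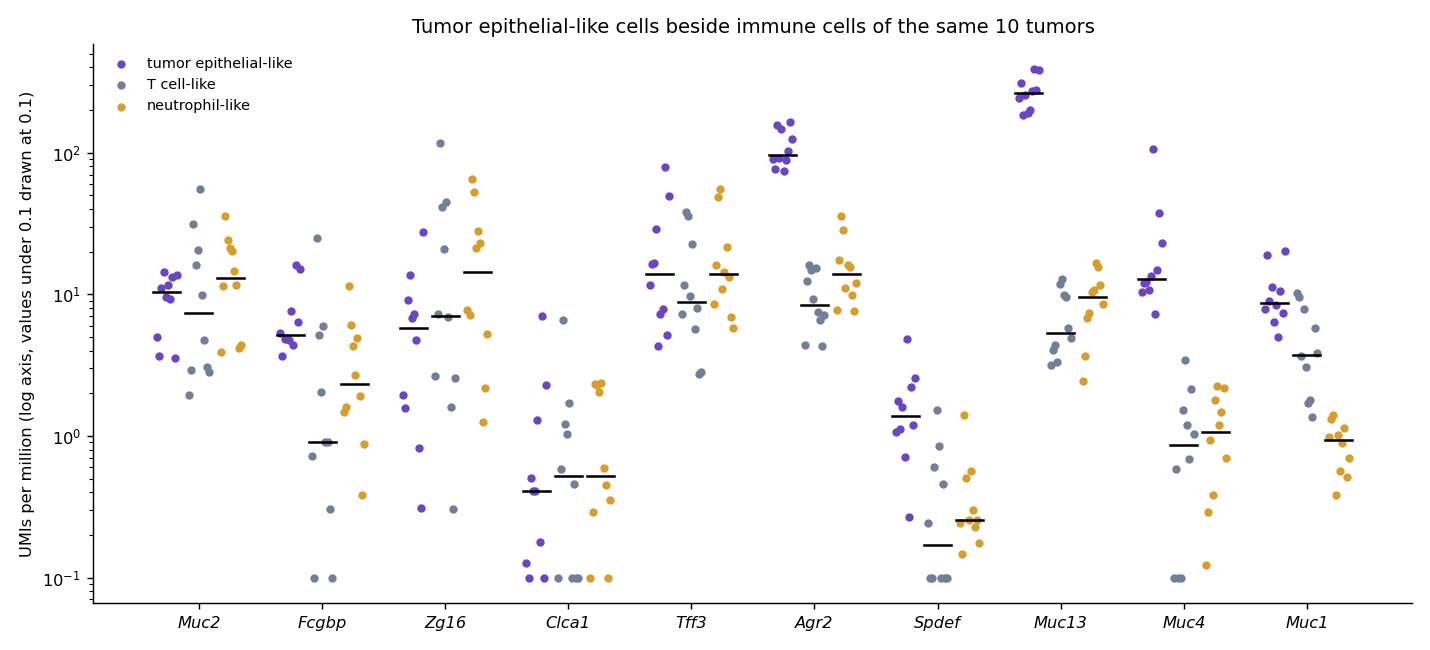
CPM (vertical axis, log scale, values under 0.1 drawn at 0.1) of the 10 genes in tumor epithelial-like, T cell-like and neutrophil-like cells of the same 10 tumors, 1 point a tumor, with the median (bar). Muc13, Agr2 and Muc4 lie above both of these immune classes in every tumor, while the points of Muc2, Zg16, Clca1 and Tff3 overlap those of the immune classes.

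Muc4 was also above the T cell-like and neutrophil-like level in 10 of 10 tumors, but its level differed by tumor. It was 105.4 in tumor 6, 37.5 in tumor 9, 23.1 in tumor 10 and between 7.28 and 14.8 in the other 7, with at most 3.41 in T cell-like and neutrophil-like cells. Muc4 reached 18.6 in B cell-like cells of tumor 9, below the tumor epithelial-like level, and 44.0 in the other immune cells of tumor 1, above it. Agr2 was likewise above the level of other immune cells in 9 of 10 tumors, tumor 1 being the exception, and Muc13 in 10 of 10. Muc1 stood at 5.00 to 20.2 with a median of 8.74 and lay above the T cell-like level in 9 of 10 tumors and above the neutrophil-like level in 10 of 10. Spdef stood at a median of 1.39, above the T cell-like level in 9 of 10 tumors and above the neutrophil-like level in 8 of 10. Muc2 stood at 3.57 to 14.4 and lay above the T cell-like level in 5 of 10 tumors and above the neutrophil-like level in 3 of 10. Zg16, at 0.311 to 27.8, lay above them in 2 and 1 of 10 tumors, and Clca1, at 0 to 7.01, in 4 and 3. Fcgbp, at 3.68 to 16.1, lay above them in 8 and 7. In tumor 10 all 3 of Zg16, Muc2 and Clca1 stood above both classes: Zg16 was 27.8 against 2.57 in T cell-like and 5.26 in neutrophil-like cells, Muc2 13.7 against 2.82 and 4.38, and Clca1 2.29 against 0 and 0.350. In tumor 8 Clca1 was 7.01 against 0.456 and 0.453. Tff3, at a median of 14.0, lay above them in 6 and 4 of 10 tumors, with 79.3 in tumor 8 and 49.5 in tumor 10.

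The tumor epithelial-like class joins 2 clusters. One is led by Gm26917, Onecut2 and Atg9b, with Sox4 and Lgr5 lower among its leading genes. The other is led by Mt4 and Ptn. Muc13 was 366.7 ± 76.2 (SD, n = 10) in the former and 193.5 ± 62.4 in the latter, and Muc1 14.1 ± 5.89 and 8.02 ± 5.31. Agr2 was 96.7 ± 17.3 and 127.2 ± 57.9. Outside this class, absorptive-like cells held Muc13 at 2387 ± 395.1 in tumors and 1708 ± 325.6 in mucosa (SD, n = 10 and 3), and Muc4 at 137.1 ± 86.2 and 134.4 ± 74.1. Their Muc1 was 0 to 112.6 with a median of 38.7 in tumors and 1.14 to 4.57 in mucosa. Different clusters made up the absorptive-like class in the tissues, since cluster 16 held 1905 mucosa cells and 1 tumor cell and cluster 18 held 901 and 818, so these values are given without a test.

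Other genes of the mucus pathway, from lists chosen with earlier results known, were counted in the sums over all epithelial cells. Of 24 genes for the secretory machinery of goblet cells, 19 were lower and 0 higher, with a median log2 fold change of -1.22. Of 28 tested genes for O-glycan synthesis, which builds the sugar chains of mucins, 21 were lower and 2 higher, with a median of -1.59. Of 7 other secreted goblet products 5 were lower and 1 higher, with a median of -3.17, and of 15 factors of secretory fate 9 were lower and 2 higher, with a median of -0.71. Over all genes 30.1% were lower and 33.7% higher, and the median was 0.04. Within goblet-like cells the counts were 4 lower and 1 higher of 23, 2 lower and 3 higher of 25, 2 lower and 0 higher of 6, and 3 lower and 2 higher of 14, against 5.06% of all genes lower and 7.94% higher, with medians of -0.10, -0.07, -0.36 and 0.20. In cluster 12 alone they were 2 lower and 0 higher of 23, 0 lower and 1 higher of 24, 1 lower and 0 higher of 6, and 2 lower and 0 higher of 14, against 1.60% of all 7995 genes lower and 3.35% higher. Genes of these lists could enter the clustering that made the goblet-like class, unlike the 10 mucus genes. Retnlb, Spink4, Klk1, Tpsg1, Ern2, Creb3l1, Creb3l4, Sytl2, Rep15, Bcas1, Capn9 and Atoh1 were also among the 14 markers that named the goblet-like clusters. Counts within goblet-like cells are therefore not independent of that naming.

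Named by the same rule, the core 3 O-glycan enzyme B3gnt6 fell in all epithelial cells from 6.08 to 17.9 CPM in mucosa to 0.0864 to 0.750 in tumors (log2 fold change -5.73 ± 0.43, adjusted p = 4.0e-07). It was lower within goblet-like cells too, at 0 to 8.19 in tumors against 21.3 to 32.9 in mucosa (log2 fold change -3.94 ± 0.44, adjusted p = 6.2e-05). The branching enzyme Gcnt3 fell in all epithelial cells (log2 fold change -3.52 ± 0.31) but did not pass the test in goblet-like cells (-0.53 ± 0.23, adjusted p = 0.14). Atoh1, the transcription factor that sets secretory fate, fell in both, with log2 fold changes of -3.60 ± 0.33 and -0.95 ± 0.14 (adjusted p = 1.4e-06 and 0.00051). Atoh1 is among the leading genes of goblet-like cluster 17, whose share of goblet-like cells moved with tissue, and in cluster 12 alone its log2 fold change was -1.04 ± 0.16 (adjusted p = 0.0015). Cdx2, a colonic identity factor, fell likewise, with log2 fold changes of -4.56 ± 0.61 and -1.94 ± 0.32 (adjusted p = 3.0e-05 and 0.0011), and of -1.80 ± 0.31 in cluster 12 alone (adjusted p = 0.0030). Among goblet products Retnlb fell in both, from 548.1 to 1319.9 in mucosa down to 6.32 to 114.8 in tumors over all epithelial cells (log2 fold change -4.87 ± 0.66). Within goblet-like cells the Retnlb log2 fold change was -1.58 ± 0.43 (adjusted p = 0.023), but Retnlb leads cluster 17, and in cluster 12 alone it was -0.58 ± 0.49 and did not pass the test (adjusted p = 0.53). B3gnt6 did not pass the filter on low counts in cluster 12 alone.

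Klk1, a kallikrein, fell in all epithelial cells (log2 fold change -3.70 ± 0.56), as did the exocytosis genes Sytl4 (-2.69 ± 0.26) and Rep15 (-2.63 ± 0.40), and none of these 3 passed the test in goblet-like cells. Klk1 and Rep15 were among the markers that named the goblet-like clusters. Of other mucins, 3 of 5 were higher and 2 lower in all epithelial cells, against 33.7% and 30.1% of all genes, with a median of 1.74 that stays with Muc5ac at its bound. Within goblet-like cells 2 of the 3 tested were higher and 0 lower, against 7.94% and 5.06% of all genes, and likewise in cluster 12 alone, against 3.35% and 1.60%. These were Muc5ac, at 1.49 to 35.1 CPM in tumor goblet-like cells and 0 in those of mucosa, and the membrane mucin Muc3, at 28.1 to 259.7 and 21.6 to 45.8 (log2 fold change 2.36 ± 0.47, adjusted p = 0.0041), which was lower in all epithelial cells (-1.12 ± 0.36, adjusted p = 0.014). Muc5ac is counted as higher in each of these comparisons. Without a UMI in mucosa it passed the filter through tumors alone and could be called in no other direction. Its lowest tumor level rests on very few UMIs. The membrane mucin Muc3a fell from 51.6 to 67.9 CPM in mucosa to 5.87 to 25.5 in tumors (log2 fold change -2.75 ± 0.30). The gel-forming gastric mucin Muc5ac had 161 UMIs in tumor and 0 in mucosa epithelial sums, at least 40.4-fold higher against a floor of 3 UMIs over the mucosa sums. Muc6, also gastric, stood at 0.04996 to 0.455 in mucosa and 0.994 to 8.04 in tumors (log2 fold change 3.56 ± 0.87). Ang4, an antimicrobial ribonuclease listed among goblet products and also a Paneth marker, rose from 1.17 to 1.36 in mucosa to 10.8 to 365.8 in tumors. The Notch target Hes1, the crypt-base factor Sox9 and the glycosyltransferase Galnt1 rose by 0.61 ± 0.14, 0.56 ± 0.17 and 0.50 ± 0.12 on the log2 scale.

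The genes most like each mucin across 11 profiles of epithelial class by tissue were found by Pearson r of log2(CPM + 1) among 8055 genes. For Muc2 they were Sval1 (r = 0.984), Retnlb (r = 0.970) and Fcgbp (r = 0.968). For Muc13 they were Nr3c2 (r = 0.967), Leng9 (r = 0.952) and Atp11b (r = 0.946). For Muc4 they were 6430548M08Rik (r = 0.959), Pcyt1a (r = 0.958) and 1700019D03Rik (r = 0.951). The profiles share libraries and differ in depth, so these values describe likeness and carry no p.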

How the data were processed

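The 13 libraries, 10 tumors and 3 mucosa, were deposited as matrices of UMI counts per gene and cell, which the authors made with Cell Ranger 6.0.0 on mm10 per the labels. Libraries held 6537 to 15049 barcodes and 57221300 to 116133079 UMIs. Cells with at least 500 UMIs, 200 genes and under 25% mitochondrial UMIs were kept, and 0.8% of cells per 1000 barcodes were removed as doublets by a score from simulated doublets. The 10 genes were held out of the 2000 variable genes used for 30 principal components and Leiden clustering (leidenalg 0.10.2, resolution 1, 33 clusters), and clusters were named from marker lists that hold none of them. Raw counts were summed per library and class and fitted with edgeR 4.0.16 in R 4.3.3 (TMM scaling, filterByExpr, quasi-likelihood test, Benjamini-Hochberg threshold 0.05), with at least 20 cells per sum. All 10 genes passed the filter in each comparison. The steps were tested on simulated data.

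The 10 genes, the pathway lists and the tests were chosen with earlier results of these data known. From each list the text names up to 2 genes a direction, those past the threshold with no overlap of libraries and the largest change in epithelial sums. Muc3 is named outside this rule, for its call in goblet-like cells. Alternatives were other scaling, no filter, DESeq2 1.42.0, stricter cell limits, kept doublets, a finer clustering, the mouse as a block, the tumors of each mouse summed and leaving out each library. Tumors of mice A, B and C share the animal code of their mucosa, and the correlations of their deviations from the tissue means were 0.171, 0.0643 and 0.191 in epithelial sums. In goblet-like sums they were 0.294, -0.041 and 0.237. Nothing states that tumors of one mouse are independent, so p-values measure the spread between libraries. Sequences come from RefSeq (GRCm38.p6) and coordinates from GENCODE.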

Additional observations from a re-analysis of the deposited data

Results flagged for a closer look

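In goblet-like cells, Muc1 in tumor 6 stood at 12.9 CPM (counts scaled to a fixed total), far below the next tumor at 39.1, and Zg16 in tumor 2 stood at 561.6, with the next tumor at 7270.1. In absorptive-like cells, Agr2 in tumor 1 stood at 6.58, with the next tumor at 19.4. Tumor 1 held 35 absorptive-like cells, and this value rests on very few UMIs. Of 61 groups of 4 to 10 libraries examined for a library far from the others, 3 had one, and chance gives about 1 in 20, or 3.05. The change between tumor and mucosa differed between goblet-like and other epithelial cells for Muc4 by 1.35, for Muc13 by 0.99 and for Zg16 by 2.80 on the log2 scale, each tested as a difference with library as a block. The mix of other epithelial cells moved with tissue, and its part in these values was not tested.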

How the results depend on the processing

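Over the alternatives tried, 807 values of the 10 genes kept their direction and their side of the threshold, 60 missed the threshold, 21 newly passed it and 32 changed sign. Where a value changed, the cause was not tested. For goblet-like sums, tumor against mucosa, the genes called numbered 1145 and became 2112 with no filter, 433 with a mitochondrial limit of 10% (which left tumors 1, 8 and 9 with under 20 cells), 396 with cluster 12 alone and 728 with cells of at least 5000 UMIs, the last 2 chosen after seeing the data. Leaving out 1 library gave 486 to 1315 (643, 572 and 486 without mucosa 1, 2 and 3), against 2555 to 4310 of 3992 for goblet-like against other epithelium, difference of the tumor against mucosa change (2555 and 2566 without mucosa 2 and 3), 8670 to 10256 of 9919 for epithelial sums, tumor against mucosa, and 8328 to 10226 of 9840 for non-goblet epithelial sums, tumor against mucosa. With library totals alone the median of all genes moved by 0.26, -0.11 and 0.25 in epithelial, goblet-like and non-goblet sums, and the share of calls that were higher went from 52.8% to 69.3%, from 61.0% to 37.5% and from 53.4% to 69.5%. With the mouse as a block the counts were 10197, 1042 and 10175, and of the 10 genes the call changed for Agr2 in non-goblet sums alone (log2 fold change -0.62, adjusted p = 0.0495). No block was added to the difference of changes, where library is already the block. With the tumors of each mouse summed, so that the mouse was the unit, 36 values of the 10 genes kept their direction and their side of the threshold. Another 1 missed the threshold, 2 newly passed it and 1 changed sign.

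The values that changed sign were these. In goblet-like sums Clca1 was -0.025 with library totals alone, -0.017 with the tumors of each mouse summed, -0.18 with a mitochondrial limit of 10%, -0.13 with cells of at least 5000 UMIs and -0.58 to -0.041 without mucosa 1, mucosa 2, tumor 3 or tumor 5 or with cluster 12 alone (-0.15, -0.041, -0.11, -0.044 and -0.58), with a highest value of 0.72 without mucosa 3. With cluster 12 alone Muc2 was 0.066, Fcgbp -0.019 and Zg16 -0.44. Without mucosa 1 Muc4 was 0.091 and Zg16 -0.16 in goblet-like sums and Muc2 -0.018 in non-goblet sums, and the other ends of their ranges without 1 library were -0.43, 0.63 and 0.82. In non-goblet sums Fcgbp was 0.098 with library totals alone, 0.026 with the mitochondrial limit and 0.41 without mucosa 2, with a lowest of -0.61 without mucosa 1. In epithelial sums Muc1 was -0.0083 with the mitochondrial limit and -0.10, -0.041 and -0.0068 without mucosa 3, tumor 2 and tumor 10, with a highest of 0.45 without mucosa 1. Without Paneth-like cells, also chosen after seeing the data, Muc2 was -2.48 and Tff3 -0.81. With doublets kept Muc2 was -1.76 in non-goblet sums (adjusted p = 0.0087), and the differences of changes were 1.11 for Muc2, 0.62 for Agr2, 1.13 for Tff3 and 0.43 for Spdef. The Tff3 difference was 0.035, 0.21 and 0.086 without mucosa 2, mucosa 3 and tumor 2, with a lowest of -0.64 without mucosa 1. Tumors held 8 to 142 goblet-like cells, which limits the precision of their sums, and shares and sums cover 3 mice only.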
